A study of Arabidopsis thaliana with 15 samples.

Results

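Binding sites of the transcription factors MYB3R1 and MYB3R4 were compared in inflorescence meristems dissected from Arabidopsis thaliana. The members were all peaks of the 3 MYB3R1 and the 3 MYB3R4 chromatin immunoprecipitation (ChIP-seq) libraries on nuclear chromosomes 1 to 5, outside a stretch of chromosome 2 from 3.2 to 3.7 Mb. These were 41832 peaks, 38173 of MYB3R1 and 3659 of MYB3R4, of 43248 peaks in the 8 lists of the study. All plants were of the Col0 background and were grown in long days, and meristems were taken shortly after bolting. One line carried GFP-MYB3R1 under the MYB3R1 promoter and the other GFP-MYB3R4 under the MYB3R4 promoter, and both were precipitated with the anti-GFP antibody ab290. Each protein was thus compared with the other as a tagged transgene, at whatever level its own promoter gave, and the genotype at the resident MYB3R genes was not given in the sources used here. A meristem sample mixes cells at all stages of the cycle.

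MYB3R proteins carry 3 MYB repeats and bind the mitosis-specific activator (MSA) element, found near many genes that are transcribed in G2 and mitosis. MYB3R4 is known mainly as an activator of these genes. MYB3R1 is known to act both as an activator and, in complexes related to the animal DREAM complex, as a repressor of them. The comparison asked where in the genome the proteins bind alike, how closely their summits coincide, and what distinguishes their sites outside the known mitotic genes.

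A site here is a peak that the authors called over input, its summit is the position of highest enrichment, and its fold enrichment is the authors' ratio at the summit. Read depth is unknown, so a site missing from a list may lie below what that library could show. MYB3R1 replicates 1, 2 and 3 had 11444, 19653 and 7076 sites, and MYB3R4 replicates 1, 2 and 3 had 654, 2705 and 300. The MYB3R1 lists were all longer than the MYB3R4 lists, by a mean of 11505 sites (exact permutation test over libraries, two-sided, p = 0.10, the smallest p that 3 against 3 allow). Because of this gap, comparisons were made at common sites and between lists cut to the same length as well as over full lists. Whether the replicates are of separate plants is not in the labels, and p-values measure only the spread between these libraries. Some libraries were made in-house and the rest by a company in another way, and the labels do not give which. Replicates 1 and 2 of both proteins have file names of 1 style and replicate 3 of both another, which was treated as a possible batch. There was no ChIP from untagged plants.

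The reproducible MYB3R4 sites lay almost entirely within MYB3R1 sites, and MYB3R1 bound 8946 reproducible sites where no MYB3R4 peak was called. Taking as reproducible a merged site with peaks of at least 2 libraries of a protein, there were 11102 MYB3R1 and 330 MYB3R4 sites. Of the 330 MYB3R4 sites, 304 (92.1%) overlapped a reproducible MYB3R1 site, and 320 (97.0%) overlapped a peak of any MYB3R1 library. The 304 overlapped 302 of the 11102 MYB3R1 sites, a share of 2.72%. Those 8946 MYB3R1 sites (80.6%) overlapped no peak of any MYB3R4 library, 4646 of them with peaks of all 3 MYB3R1 libraries. Without MYB3R4 replicate 2, the longest MYB3R4 list, the overlapping sites numbered 155 of 175.

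The overlap depended on the strength of the site. Each MYB3R1 list was split into 10 equal bins by fold enrichment. In replicates 1, 2 and 3 the weakest bin overlapped a MYB3R4 peak at 10.7%, 2.29% and 21.3% of its sites. In the strongest bin the shares were 47.2%, 43.5% and 41.2%. Most of this came from MYB3R4 replicate 2, which alone gave 45.7%, 42.5% and 39.8%. With MYB3R4 replicates 1 and 3 only, the shares were 1.83%, 0.153% and 7.77% in the weakest bin and 22.4%, 14.5% and 23.9% in the strongest. The strongest bin was thus overlapped more often in each of the 3 libraries, but in none was it overlapped at most of its sites. Seen from the other side, MYB3R4 replicates 2 and 3 had 97.2% and 92.0% of their sites on MYB3R1 peaks. In MYB3R4 replicate 1 the share was 42.0%. There it went from 23.7%, 10.7% and 16.2% in the 3 weakest of 5 equal bins by fold enrichment to 62.6% and 96.9% in the 2 strongest.

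**Figure D1:**
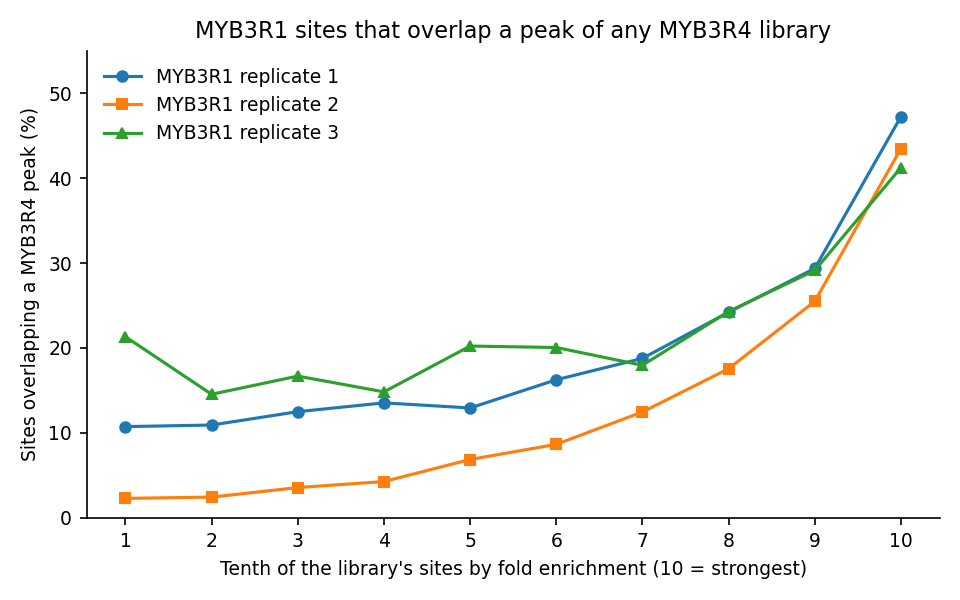
Share of MYB3R1 sites (vertical axis, percent) that overlapped a peak of any MYB3R4 library, by bin of fold enrichment within each MYB3R1 library (horizontal axis, 10 equal bins, with 10 the strongest). Lines are the 3 MYB3R1 libraries, and in the strongest bin they lay between 41.2% and 47.2%.

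The lists of strongest sites differed between the proteins in which sites they held. Each list was cut to its 300 strongest sites by -log10 p-value, the length of the shortest list. That list, of MYB3R4 replicate 3, was thus kept whole, down to its weakest sites. Pairs of MYB3R1 libraries then shared 80.2% to 86.5% of sites and pairs of MYB3R4 libraries 52.8% to 57.5%. The 9 pairs of a MYB3R1 with a MYB3R4 library shared 30% to 44.2%, below every pair of the same protein. The mean overlap between proteins minus that within proteins was -31.8 percentage points (exact permutation test exchanging library labels, two-sided, p = 0.10, the smallest it can give). The 300 strongest MYB3R4 sites were nevertheless mostly in the full MYB3R1 lists, at 61.7% to 93.0% over the 9 pairs. Those that were there had a median percentile of fold enrichment between 87.5 and 98.9 within the MYB3R1 list.

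The 6 libraries had 141 sites in common, 0.703% of the 20054 merged sites with a peak of any of them. At 101 of the 141 each library had exactly 1 peak, and elsewhere the peak of highest fold enrichment was used. The MYB3R1 libraries had median fold enrichments of 10.5, 8.62 and 5.12 at the common sites (replicates 1, 2 and 3), against 2.51, 3.33 and 3.18 for MYB3R4. These are the authors' ratios, and no test compares their size between lists. Of the 141, 12 (8.51%) lay near 1 of 49 listed G2/M genes, where the full lists had 0.295% to 5.33% of their sites, and 127 lay near no gene of the 6 cell cycle, cytokinin and meristem lists used here. A gene counted as near when the summit lay from 1000 bp outside to 200 bp inside either of its ends, since the gene table gives no strand.

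Summits of both proteins coincided at most common sites. The median distance between the summits of a MYB3R1 and a MYB3R4 library was 20 to 46 bp over the 9 pairs, against 15 to 32 bp between MYB3R1 libraries and 31 to 40 bp between MYB3R4 libraries. The mean distance between proteins exceeded that within proteins by 1.72 bp (exact permutation test exchanging library labels, two-sided, p = 0.40). Leaving out MYB3R1 replicate 1 or 3 turned this difference to -1.17 and -2.25 bp, and leaving out MYB3R4 replicate 1, 2 or 3 gave 7, 7.42 and 6.08 bp, the cause of which was not tested. In genome coordinates the median signed offset of a pair was between -2 and 7 bp. Genes were used without strand, and a shift relative to the direction of transcription could cancel in this measure. The group medians of the summits were 17 bp apart at the median site and within 50 bp at 110 of the 141 (78.0%).

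The 3 MYB3R1 summits and the 3 MYB3R4 summits did not overlap in position at 21 of the 141 sites, which is 14.9%. The gap between the nearest summits of both groups was over 50 bp at 4 of these and over 200 bp at none. The widest was at AT5G66310 (chr5:26490478-26495054, TAIR10). Its MYB3R1 summits lay at 26492335, 26492435 and 26492336 in replicates 1, 2 and 3, and its MYB3R4 summits at 26492597, 26493025 and 26492856. All MYB3R4 summits were to one side, with a gap of 162 bp and medians 520 bp apart, at a site that was weak in every library (ranks 117 to 139 of 141). At AT1G16630 (chr1:5684324-5686980) the medians were 218 bp apart and the gap was 101 bp. At the site beside WYR, the homologue of the chromosomal passenger protein INCENP, and AT5G55830 (chr5:22593165-22595615), the MYB3R4 summits lay on the low-coordinate side, with medians -176 bp apart (MYB3R4 minus MYB3R1) and a gap of 106 bp. This site was also among those with the largest difference in rank, described below. A site on chromosome 5 with no gene near (chr5:7556876-7559401) had medians 159 bp apart with a gap of 1 bp, and one beside AT3G16270 and AT3G16280 had 76 bp with a gap of 63 bp.

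MYB3R1 peaks were the wider ones at common sites. Median widths were 1025, 1602 and 1362 bp in the MYB3R1 libraries and 571, 707 and 681 bp in MYB3R4 replicates 1, 2 and 3. The groups did not overlap, and the means of these medians were 1330 ± 290 and 653 ± 72.2 bp (SD, n = 3 libraries each), a difference of 677 bp (exact permutation test, two-sided, p = 0.10). At 100 of the 141 sites (70.9%) each MYB3R1 peak was wider than each MYB3R4 peak, at 41 the widths overlapped, and at none was MYB3R4 wider in this sense. The ratio of median widths was 1.91 at the median site and ranged from 1.05 to 6.39. Over all sites of each list the difference was smaller, with medians of 615, 728 and 646 bp against 536, 558 and 617 bp. The groups overlapped, since MYB3R4 replicate 3 lay above MYB3R1 replicate 1, and the means differed by 92.8 bp (exact permutation test, two-sided, p = 0.20), which was 60.3 bp without MYB3R1 replicate 2. Between lists of the 300 strongest sites it was 509 bp (exact permutation test, p = 0.10).

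Wider peaks tended to have higher fold enrichments in 5 of the 6 libraries. Across the sites of a library, Spearman's correlation between width and fold was 0.63, 0.69 and 0.63 in the MYB3R1 libraries and -0.03, 0.44 and 0.37 in the MYB3R4 libraries, given as a description since sites share a library and its depth. MYB3R4 peaks at common sites had median fold enrichments of 2.51 to 3.33 and widths of 571 to 707 bp. The bins of MYB3R1 replicate 1 with median folds of 2.56 to 3.15 had median widths of 509 to 612 bp. In replicate 2 the bins with 2.62 to 3.22 had 677 to 780 bp, and in replicate 3 those with 2.65 and 2.99 had 742 and 861 bp. At like fold enrichment the MYB3R1 widths were thus partly below, partly in and partly above the range of MYB3R4. Those below it were in replicate 1, and those above it were in replicates 2 and 3. The part of peak strength in the width difference was not tested.

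**Figure D2:**
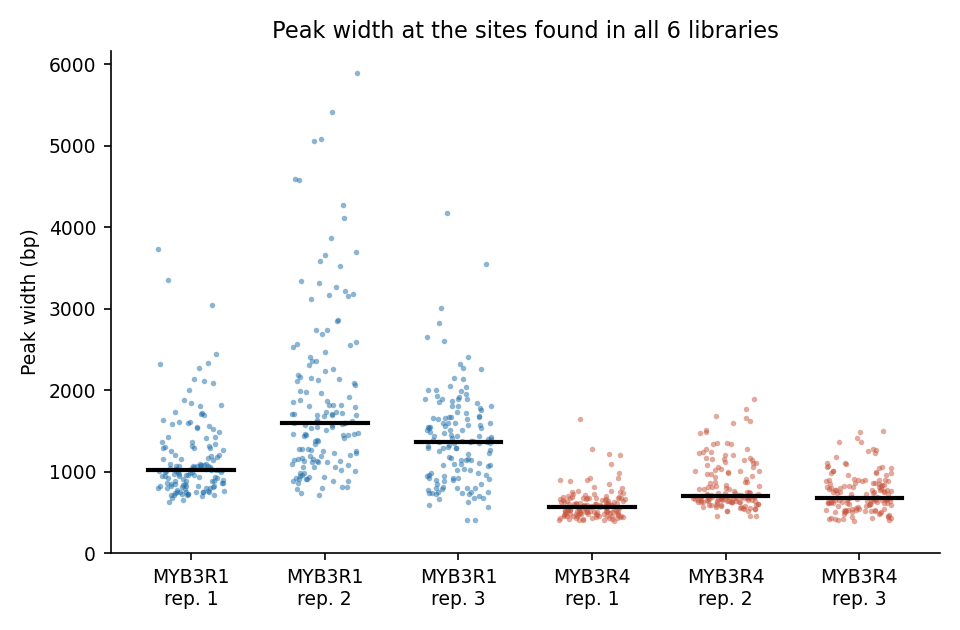
Width in bp (vertical axis) of the peak of each library at each of the 141 common sites (points), with the library median as a black bar. The medians were 1025 to 1602 bp in the 3 MYB3R1 libraries and 571 to 707 bp in the 3 MYB3R4 libraries.

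Within the common sites, the order of strength was shared by the libraries of a protein more than by both proteins. Spearman's correlation of fold enrichment over the 141 sites was 0.90 to 0.94 between MYB3R1 libraries, 0.78 to 0.85 between MYB3R4 libraries and 0.59 to 0.68 between a library of each. The MYB3R4mNES form (its suffix is not spelled out in the labels) was read at the 80 sites with a peak in all 8 lists, its own included. Its 2 libraries correlated with those of MYB3R4 at 0.60 to 0.77 and with those of MYB3R1 at 0.36 to 0.54. The correlations are descriptions over sites that share libraries, and no p was computed.

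**Figure D3:**
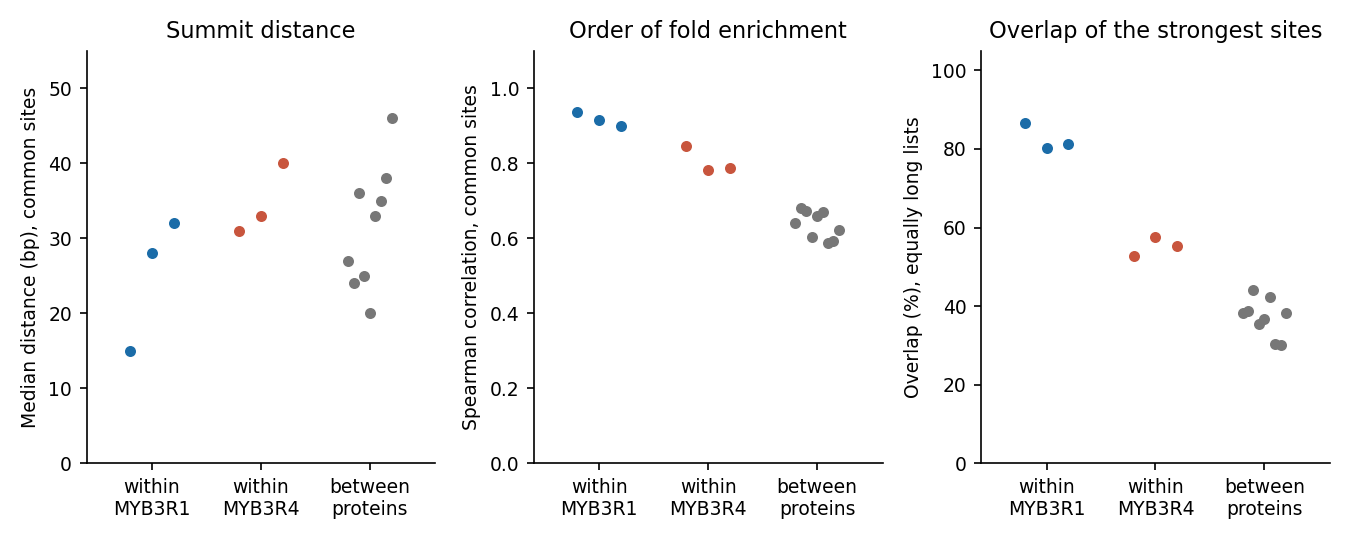
Each point is a pair of libraries, within MYB3R1, within MYB3R4 or between the proteins. The vertical axes are the median summit distance in bp and the Spearman correlation of fold enrichment at the 141 common sites, and the overlap in percent of the 300 strongest sites. Distances were 20 to 46 bp between proteins and 15 to 40 bp within a protein, and correlations and overlaps between proteins were below every pair within a protein.

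Each site was then ranked by fold enrichment within each library (1 is the strongest). At 28 of 141 sites (19.9%) all MYB3R1 ranks were stronger than all MYB3R4 ranks, and at 27 (19.1%) all MYB3R4 ranks were stronger. Ranks are relative, so a stronger position of some sites is offset at others, and the near equality of both counts says nothing of overall strength. Of the 12 sites near listed G2/M genes, 6 were among the 28 stronger in MYB3R1, 2 among the 27 stronger in MYB3R4 and 4 in neither. For these 12, MYB3R1 replicates 1, 2 and 3 gave median ranks of 28, 33.75 and 26 and the MYB3R4 libraries 61.25, 59.5 and 41.5, where the other 129 sites had medians of 72.5 to 77 in all 6. G2/M sites thus stood higher in the order of each MYB3R1 library than in that of any MYB3R4 library. Leaving out MYB3R4 replicate 1 or 3, which also enlarged the set of common sites, changed the 55 sites without overlap to 102 of 206 and 117 of 215.

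**Figure D4:**
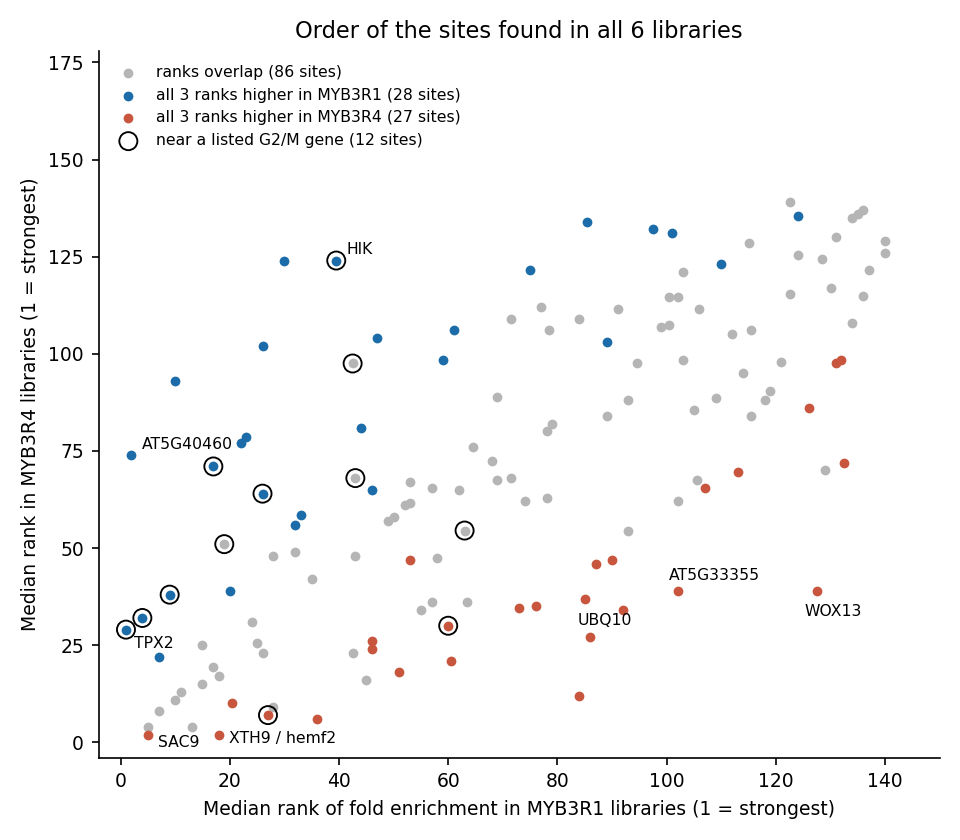
Median rank of fold enrichment in the 3 MYB3R1 libraries (horizontal axis) against that in the 3 MYB3R4 libraries (vertical axis) for the 141 common sites, with 1 the strongest. Colours mark the 28 sites where all MYB3R1 ranks were stronger, the 27 where all MYB3R4 ranks were stronger and the 86 others, and rings mark the 12 sites near a listed G2/M gene.

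The strongest MYB3R1 site was at TPX2, which encodes a spindle assembly factor (chr1:950516-952638). In MYB3R1 replicates 1, 2 and 3 it had fold enrichments of 26.1, 12.6 and 15.2, against 3.45, 4.26 and 5.07 in MYB3R4 replicates 1, 2 and 3. It ranked 1, 1 and 2 in MYB3R1 but 29, 33 and 19 in MYB3R4. The B-type cyclin gene CYC1BAT, beside ATO, followed a similar pattern, with 22.5, 12.4 and 12 in MYB3R1 (ranks 4, 2 and 9) and 3.52, 3.57 and 4.23 in MYB3R4 (ranks 25.5, 55 and 32). CYCB2;4, another B-type cyclin gene, ranked 16, 9 and 8 in MYB3R1 and 43, 38 and 20 in MYB3R4. The site at AT5G40460, of the list of G1 cyclins and CDK inhibitors, ranked 2, 5 and 1 against 53, 74 and 77. At all 4 the groups of ranks did not overlap, although the groups of summits did. At AT5G40460 the 6 summits fell between 16202036 and 16202043, and at CYC1BAT between 1861681 and 1861738. The spread was larger at TPX2 (951827 to 951937) and CYCB2;4 (28630719 to 28630812).

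The largest difference in rank towards MYB3R1 was at the WYR site, with fold enrichments of 13.6, 10.5 and 8.57 in MYB3R1 and 2.36, 2.55 and 2.29 in MYB3R4. It ranked 40.5, 30 and 30 against 86, 124 and 125. HIK, the HINKEL kinesin of cytokinesis, came next with 12.3, 9.97 and 8.23 against 1.91, 3.27 and 2.31 (ranks 49.5, 39.5 and 32 against 132, 78 and 124). The sites at AT4G15840 and AT4G15830 and at AT3G12870 and AT3G12880 ranked 10 to 34 and 4 to 35 in MYB3R1, and 89 to 102 and 79 to 120 in MYB3R4. In none of these did the ranks of both proteins overlap.

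The sites that stood higher in MYB3R4 lay at genes of varied function. Among the common sites, 2 shared the strongest median rank in MYB3R4 of 2. One was beside XTH9, a xyloglucan endotransglucosylase gene of the cell wall, and hemf2 (chr4:1414505-1416459). Its fold enrichment was 5.32, 7.15 and 8.06 in MYB3R4 (ranks 3, 2 and 1) and 17.9, 11.9 and 9.27 in MYB3R1 (ranks 18, 8 and 23). The other was at SAC9, a phosphoinositide phosphatase gene, with 5.73, 8.03 and 7.90 in MYB3R4 (ranks 2, 1 and 2) and 22.3, 12.4 and 9.54 in MYB3R1 (ranks 5, 3 and 20.5). At both, the ranks of the groups did not overlap. The strongest peak of MYB3R4 replicate 3, with a fold of 16.4 (chr4:12898929-12901406), was not a common site, since MYB3R4 replicates 1 and 2 had no peak there. The receptor kinase gene MRLK ranked 6, 6 and 6 in MYB3R4 and 36, 36 and 17 in MYB3R1, and PPK1 ranked 11, 10 and 7 against 20, 31 and 20.5.

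The G2/M sites that stood higher in MYB3R4 were at SYP111, the cytokinesis syntaxin KNOLLE, and between the CDC20.1 and CDC20.2 genes, which encode activators of the anaphase-promoting complex and, as near-identical neighbours, may share reads. SYP111 had fold enrichments of 4.63, 6.22 and 6.77 in MYB3R4 (ranks 9, 7 and 5) and 15.9, 11.4 and 8.84 in MYB3R1 (ranks 29, 18 and 27). The site between CDC20.2 and CDC20.1 ranked 30, 30 and 17 in MYB3R4 and 67, 60 and 56 in MYB3R1. A second site, between CDC20.1 and AT4G33280, ranked 77, 51 and 41 in MYB3R4 and 14, 58 and 19 in MYB3R1, so that there the groups overlapped. SYP111 was the 1 G2/M site among the 20 strongest common sites of MYB3R4 by median rank, against 5 among those of MYB3R1. The 2 sets of 20 shared 11 sites.

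The largest differences in rank towards MYB3R4 were at WOX13, a homeobox gene, with 2.71, 3.96 and 4.15 in MYB3R4 (ranks 58.5, 39 and 35) and 5.65, 6.53 and 2.59 in MYB3R1 (ranks 130, 114 and 127.5). IMK2, a meristem receptor-like kinase gene, ranked 18, 12 and 9 in MYB3R4 and 84, 62 and 92 in MYB3R1. The polyubiquitin gene UBQ10 ranked 7, 27 and 64 against 89, 70 and 86, so that MYB3R4 replicate 3 lay only just on the stronger side. AT5G33355 ranked 37, 90.5 and 39 against 97.5, 133 and 102, and AT3G03610 104, 72 and 63 against 132.5, 130 and 139. None of these 5 lay near a listed G2/M gene.

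Some sites led for both proteins. AGP1, an arabinogalactan protein gene, next to GCH, had 24.4, 10.7 and 13.9 in MYB3R1 (ranks 3, 27 and 5) and 5.90, 6.71 and 6.97 in MYB3R4 (ranks 1, 4 and 4). The site between AT3G15548 and AT3G15550 ranked 9, 7 and 7 in MYB3R1 and 8, 3 and 12 in MYB3R4, and AT1G63100 ranked 6, 10 and 29 and 10, 11 and 16. AT1G64760, next to PnsB2, ranked 13, 21 and 3 in MYB3R1 and 4, 5 and 3 in MYB3R4, and UBC35, a ubiquitin-conjugating enzyme gene, 30, 6 and 28 and 5, 9 and 11. At these 5 sites the ranks of both proteins overlapped. MYB80, a regulator of the anther tapetum, with AT5G56120 ranked 7, 4 and 13 in MYB3R1 and 22, 16 and 24 in MYB3R4, without overlap.

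The 6 strongest reproducible MYB3R1 sites with no MYB3R4 peak had fold enrichments above the median of the common sites in each MYB3R1 library. They were chosen for the highest median percentile of fold enrichment in MYB3R1, so that high values there follow from the choice. CYCA1;1, an A-type cyclin gene that is not in the G2/M list used here, had 13.6, 10.8 and 8.32 in MYB3R1 replicates 1, 2 and 3. The site between BARD1, a DNA repair gene, and PSAT1 had 13.9, 10.9 and 9.27. That between TUA4, an alpha-tubulin gene, and AT1G04830 had 13.7, 10 and 7.29, although TUA4 had a MYB3R4 replicate 2 summit of 1.84 at its other end. MSH6, of mismatch repair, and its neighbour PRL, the MCM7 subunit of the replicative helicase, had 13.4, 9.39 and 9.79. The site at AT2G25890 lay inside that gene, with 14.0, 10.2 and 7.31, and the one at AT1G05440 had 13.6, 9.65 and 8.36. All 6 were above the 99.0 percentile of fold enrichment in each MYB3R1 library. Their fold enrichments exceed the MYB3R1 values at WOX13 and UBQ10, where MYB3R4 had peaks in 3 libraries. Both of these were named for ranking far lower in MYB3R1 than in MYB3R4, so that low MYB3R1 values there follow from the choice.

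The 10 reproducible MYB3R4 sites with no MYB3R1 peak were all weak, with fold enrichments from 1.24 to 1.73. Of these, 9 were intergenic and 1 lay inside AT1G65346 (chr1:24272480-24276477; 1.48 and 1.73 in MYB3R4 replicates 1 and 2, not called in replicate 3). Among the other named ones, chr4:4004676-4006699 had 1.57, 1.73 and 1.54 in the 3 MYB3R4 libraries and chr3:14206766-14207886 had 1.59, 1.5 and 1.54. Those at chr5:11873359-11873837, chr5:11989691-11990281 and chr2:5203027-5203774 were called in 2 libraries each. Single MYB3R4 libraries had 379, 75 and 24 peaks that overlapped no MYB3R1 peak (replicates 1, 2 and 3). The strongest of these had fold enrichments of 2.53 and 2.78 in replicates 1 and 2. In replicate 3, 3 of them exceeded a fold of 4, with the strongest at 6.73 (chr2:7808981-7810776). That peak overlapped one of MYB3R4 replicate 2, and the merged site of both peaks overlapped a MYB3R1 peak, so it was not among the 10. The others above a fold of 4 overlapped no second MYB3R4 library.

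The lists of both proteins differed in the share of their summits that lay away from genes. A summit was called intergenic when it lay over 1000 bp from every protein-coding gene, and inside when over 200 bp from both ends within one. For MYB3R1, 9.81%, 11.3% and 6.47% of summits were intergenic (replicates 1, 2 and 3), and for MYB3R4 60.6%, 19.6% and 28.7%. The groups did not overlap (9.20 ± 2.48% against 36.3 ± 21.5%, SD, n = 3 each, exact permutation test, two-sided, p = 0.10). In number, intergenic summits were 1123, 2225 and 458 in MYB3R1 and 396, 529 and 86 in MYB3R4. Reproducible MYB3R1 sites were intergenic at 16.4% where they overlapped a MYB3R4 peak and at 7.04% where they overlapped none. Reproducible MYB3R4 sites that overlapped a MYB3R1 peak were intergenic at 18.4%. Among the 300 strongest sites of each list the shares were 6.33%, 4% and 5% in MYB3R1 and 40.7%, 20% and 28.7% in MYB3R4, a difference of -24.7 percentage points (MYB3R1 minus MYB3R4, p = 0.10 by the same exact test). Windows of 100 kb were called crowded where MYB3R4 replicate 1 or 3 had at least 10 sites and more than MYB3R1 replicate 3, so that their excess in MYB3R4 follows from the choice. The 4 such windows, on chromosomes 4 and 5, held 86 sites of MYB3R4 replicate 1 against 14 and 20 in MYB3R4 replicates 2 and 3 and 1, 0 and 14 in the MYB3R1 libraries. Without these windows the shares among the 280 strongest were 5.36%, 4.29% and 5.36% in MYB3R1 and 34.3%, 17.5% and 23.6% in MYB3R4.

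Of the intergenic summits among the 300 strongest, 45 of 122 in MYB3R4 replicate 1 lay within 1000 bp of a pseudogene, 3 of 60 in replicate 2 and 7 of 86 in replicate 3. Near no gene of any annotated kind searched (tRNA, lncRNA, pseudogene, rRNA, snRNA, snoRNA or miRNA) were 72, 47 and 72 of them. That is 24%, 15.7% and 24% of the 300, against 4.33%, 2.67% and 3.67% in MYB3R1 (exact permutation test, two-sided, p = 0.10). Summits within 1000 bp of a tRNA gene were 1.90%, 1.85% and 2.04% of all MYB3R1 sites and 0%, 1.15% and 1% of all MYB3R4 sites, and the groups did not overlap (p = 0.10 by the same exact test).

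**Figure D5:**
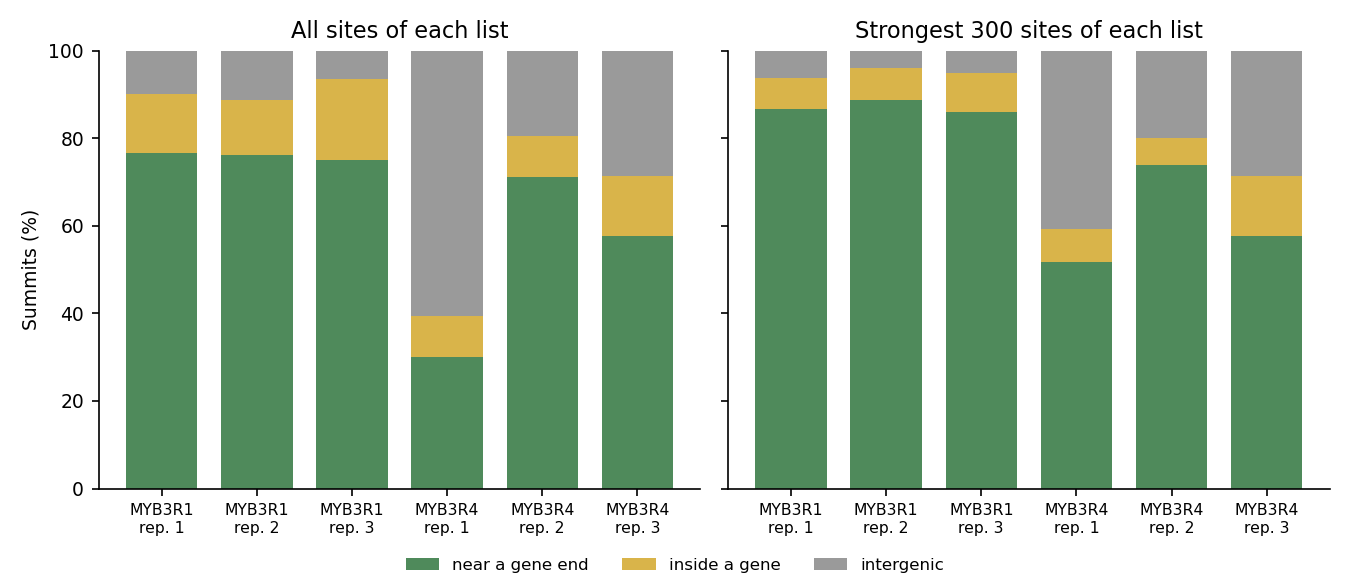
Share of summits in percent near a protein-coding gene end, inside a gene or intergenic for each of the 6 libraries, over all sites (left) and over the 300 strongest (right). Intergenic shares on the right were 4% to 6.33% in MYB3R1 and 20% to 40.7% in MYB3R4.

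Summits inside genes were 13.5%, 12.5% and 18.6% in MYB3R1 and 9.48%, 9.35% and 13.7% in MYB3R4. The groups overlapped, and the means were 4.03 percentage points apart (two-sided exact permutation test, p = 0.30). It was 2.18 without MYB3R1 replicate 3, and among the 300 strongest sites it turned to -1.33 (exact permutation test, p = 0.80). With the chromosome 2 stretch kept it was -0.0125, and with inside taken as over 500 bp from both ends it was 0.741 (exact permutation test, p = 0.10).

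At G2/M genes the comparison turned with list length. Over full lists, 0.454%, 0.295% and 0.692% of MYB3R1 sites and 1.99%, 0.813% and 5.33% of MYB3R4 sites lay near 1 of the 49 genes, which is -2.23 percentage points (MYB3R1 minus MYB3R4, two-sided exact permutation test, p = 0.10), which was -0.920 without MYB3R4 replicate 3. Among the 300 strongest sites of each list the shares were 10.7%, 11% and 10.7% in MYB3R1 and 4%, 4.67% and 5.33% in MYB3R4, a difference of 6.11 percentage points in the other direction (exact permutation test, p = 0.10). The longer MYB3R1 lists thus hold a smaller share, while their strongest sites hold a larger one.

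Counted by gene, 12280 of 27444 nuclear protein-coding genes (44.7%) lay near a summit of at least 2 MYB3R1 libraries and 326 (1.19%) near one of at least 2 MYB3R4 libraries, and 324 of the 326 were also among the MYB3R1 genes. With lists of 300 sites the numbers were 414 (1.51%) and 218 (0.794%). Of the 49 G2/M genes, 47 were bound by MYB3R1 and 16 by MYB3R4 in this sense, and 33 and 13 with lists of 300 sites. The 16 included the spindle checkpoint genes MAD2 and BUBR1, the microtubule genes EB1C, PLE and KINESIN-12B, and CSLD5, a cell wall gene of cytokinesis. CSLD5 had 18.4, 10.6 and 10 in the MYB3R1 libraries, against 2.51, 3.33 and 2.90 for MYB3R4.

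Beyond mitotic genes, DNA replication and repair genes of the S-phase list were mostly MYB3R1 genes. Of 33, 30 (90.9%) were bound by MYB3R1, against 44.7% of all genes. MYB3R4 bound 0, which is near the 1.19% of all genes. For 25 of the 33 a summit lay near in every MYB3R1 library and in no MYB3R4 library, against 5812 genes (21.2%) of all. With lists of 300 sites MYB3R1 bound 6 (18.2%) and MYB3R4 0, against 1.51% and 0.794% of all genes. MYB3R4 replicate 2 had a summit at MCM10, ORC3, MET1 and ICU2, with fold enrichments of 2.61, 1.98, 1.77 and 2.01, and no other MYB3R4 library had one there. At MET1 and ICU2 this summit was at the other end of the gene from the MYB3R1 summits. Of 16 tubulin genes MYB3R1 bound 15 (93.8%, against 44.7% of all genes) and MYB3R4 0. With lists of 300 they bound 5 (31.25%) and 0, against 1.51% and 0.794% of all genes. Each 0 is again near the background. A summit of at least 1 MYB3R4 library lay near 8 of the 16, where 2556 of all 27444 genes had one. TUB7, a beta-tubulin gene, had 19.8, 11.5 and 12.7 in MYB3R1 and 2.34 in MYB3R4 replicate 2, and TUA2, an alpha-tubulin gene, had 18.9, 11.7 and 9.80 and again only replicate 2, with 2.61. Both exceeded the MYB3R1 fold enrichments of SYP111, a site that ranked higher in MYB3R4 than in MYB3R1, in all 3 libraries. SYP111 was set beside them for that order of ranks, so that lower MYB3R1 values there partly follow from the choice. The other named tubulin genes, TUA4 (13.7, 10 and 7.29) and TUB8 (5.40, 6.33 and 4.03), lay below SYP111 in all 3.

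Of 20 cell cycle transcription regulators, 18 were bound by MYB3R1 and 1, AT1G63100, by MYB3R4. The list includes MYB3R-4 itself, whose promoter the GFP-MYB3R4 transgene also carries, with summits of 7.33, 7.25 and 5.09 in the MYB3R1 libraries and of 1.24 in MYB3R4 replicate 1. Of 22 G1 cyclins and CDK inhibitors, 13 (59.1%) and 1 were bound, where all genes had 44.7% and 1.19%. CYCD4;1, a D-type cyclin gene, had 14.2, 10.6 and 8.17 in MYB3R1 and 2.29 in MYB3R4 replicate 2 only. Against the same shares of all genes, 19 (61.3%) and 0 of 31 cytokinin genes were bound. Of 24 shoot meristem and flower regulators 13 (54.2%) and 1 were bound. That 1 was PHB, a class III HD-ZIP gene of organ polarity, with 4.52 and 5.01 for MYB3R1 and 1.71 and 2.97 for MYB3R4 (replicates 1 and 2), not called in replicate 3 of either. With lists of 300 sites neither protein bound a gene of these last 2 lists. A summit of at least 1 MYB3R4 library lay near 8 of the 31 and 9 of the 24, where 2556 of all 27444 genes had one.

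Of the 49 arabinogalactan protein genes, which encode cell surface proteoglycans, MYB3R1 bound 27 (55.1%, against 44.7% of all genes) and MYB3R4 bound 5 (10.2%, against 1.19%), AGP1, AGP4, AGP15, AGP17 and AGP18. With lists of 300 sites both bound 4 (8.16%), against 1.51% and 0.794% of all genes. AGP15 had 10.9, 9.53 and 6.86 in MYB3R1 and 2.40, 3.54 and 3.79 in MYB3R4. At the common site of AGP18 the values were 7.51, 5.96 and 3.60 in MYB3R1 and 2.81, 3.17 and 2.24 in MYB3R4. Of 115 R2R3-MYB genes, MYB3R1 bound 27 (23.5%) and MYB3R4 4 (3.48%), below and above the shares of all genes. With lists of 300 sites they bound 2 (1.74%) and 4 (3.48%), against 1.51% and 0.794%. The 4 were MYB80, MYB70, MYB73 and MYB77, of which the last 3 are close relatives with fold enrichments of 2.21 to 3.57 in MYB3R4 replicates 1 and 2 and no call in replicate 3.

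In the remaining families MYB3R4 bound 0 or 1 gene each. Of 228 cytochrome P450 genes MYB3R1 bound 60 (26.3%) and MYB3R4 0, below the 44.7% and 1.19% of all genes. Of 67 WRKY factors 20 and 0 were bound, of 84 NAC factors 38 and 0, of 16 TCP factors 10 and 0, of 21 ethylene response factors 11 and 0, of 24 heat shock genes 16 and 0, of 13 bHLH factors 5 and 0, of 8 importin alpha genes 5 and 0, and of 7 PIN auxin carriers 1 and 0. One gene each was bound by MYB3R4 among 33 xyloglucan endotransglucosylases (XTH9), 35 expansins (EXPB3), 63 homeobox factors (WOX13), 46 Aux/IAA and ARF factors (ARF2) and 24 response regulators (RR18), where MYB3R1 bound 13, 15, 24, 26 and 12. EXPB3, which encodes a cell wall loosening protein, had 11.2, 8.38 and 3.89 in MYB3R1 and 2.25, 3.24 and 3.13 in MYB3R4. For families of this size a share near 1.19% is less than 1 gene in most of them, so that a count of 0 or 1 is near the background.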

How the data were processed

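Anti-GFP ChIP-seq was done on 3 GFP-MYB3R1 and 3 GFP-MYB3R4 samples; 7 input samples and 2 GFP-MYB3R4mNES ChIP samples make up the rest of the 15. Each ChIP library had 1 list of peaks in narrowPeak format. Per the deposited file names, the input served as control and reads were lengthened to 400 bp. The submitters' processing notes name FastQC, Trimmomatic, Bowtie2, Picard and the build TAIR10; the program that called peaks was not given in the sources used here. The deposited columns hold an integer score (the -log10 q-value multiplied by 10), the authors' fold enrichment (a ratio over input), the -log10 p-value and -log10 q-value, and the distance of the summit from the peak start. Inputs are labelled as replicates 1, 2 and 3 for MYB3R1 but only as replicates 1 and 2 for MYB3R4, so none is labelled for MYB3R4 replicate 3. Which input served which library is not stated, and input files were not analysed here. Without read counts depth is unknown, and no counting interval is given.

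Peaks on the organelle genomes (0 to 169 per library) and in the chromosome 2 stretch (2 to 156) were left out. Sites were merged over libraries by an overlap of 1 bp. Genes were 27444 nuclear protein-coding genes of a RefSeq table of TAIR10.1, used for names and neighbours only. With genes in place 32.7% to 82.4% of summits had a gene near, and with genes shifted by 5000 or 20000 bp 23.5% to 50.6%. Exact permutation tests, two-sided, compared the values of libraries, and for pairs of libraries the library labels were exchanged. Python 3.11.15, numpy 2.4.6, pandas 2.3.3 and scipy 1.17.1 were used, and the functions were tested on simulated peak lists. The members, the 6 lists (179 genes, from memory) and 17 families (by symbol) were chosen with earlier results of these data known. Named sites were the 10 strongest common sites per protein, the 8 strongest of MYB3R4 without a G2/M gene, the 5 largest differences of rank in each direction and of summit position, up to 6 sites of 1 protein only, and up to 4 genes per list bound in most libraries. EB1C, MAD2, BUBR1, PLE, KINESIN-12B, CDC20.1, CDC20.2 and AGP4 were named in addition after their values were seen. The crowded windows, the search for genes of other kinds and the MYB3R4mNES correlations were added after seeing the data. No promoter sequences were used, so the planned motif count was not run.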

Additional observations from a re-analysis of the deposited data

How the results depend on the processing

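Of 128 alternative values, 114 kept their direction or, for counts, stayed within 1.5 times. No exact permutation test here could go below p = 0.10, so none speaks to stability. With equally long lists the difference at G2/M genes turned to 6.11 and that inside genes to -1.33 percentage points, and the latter was -0.0125 with the chromosome 2 stretch kept. Leaving out 1 library gave summit distance differences from -2.25 to 7.42 bp, 64 to 117 sites without overlapping ranks and 155 to 296 overlapping reproducible MYB3R4 sites. The count of sites without overlapping ranks was 35 of 79 with equally long lists and 143 of 220 with replicates 1 and 2 only, where fewer libraries are compared. The 304 overlapping MYB3R4 sites became 110 with equally long lists, 141 when all 3 libraries had to have a peak, 2665 with at least 1, and 135 with a reciprocal overlap of 50%. Within the replicate 1 and 2 naming style the difference in width at common sites was 719 bp, and in replicate 3 544 bp. With the replicate number as a block the width difference was 677 bp (exact sign-flip test, p = 0.25, the smallest it can give). Deviations of same-numbered libraries correlated at -0.05, 0.09 and 0.11 over the 141 sites, and those of other pairs at -0.14 to 0.08. In both proteins, however, replicate 2 had the longest list and replicate 3 the shortest. Whether libraries of the same number share a batch was not tested further. Not run were the crowded windows of an earlier list, ranks and reproducible sites in replicate 3 alone, pairwise values there, and the promoter motif.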
